A study of Mus musculus with 8 samples.

Results

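The homing receptor genes described here were measured in mouse skin carrying a T-cell lymphoma: *Ccr4*, *Ccr7*, *Ccr8*, *Ccr9*, *Ccr10*, *Cxcr3*, *Cxcr4*, *S1pr1* and *Selplg*. They are 9 of the 55247 entries of the deposited table, and they were chosen by gene symbol. Bulk RNA-seq was performed on back skin from 8 mice that had been inoculated with EL4, a line of mouse T-lymphoma cells. The Bexarotene group was 4 mice given 0.1 mg of bexarotene, which activates retinoid X receptors, and the Vehicle group was 4 mice given only the solvent, which the study's methods describe as dimethyl sulfoxide in corn oil. All 8 were wild-type female mice aged 8 weeks, of strain C57BL/6J in the labels and C57BL/6JJmsSlc in the methods. Each received 100 µl of a suspension of 2000000 EL4 cells per ml under the back skin on Day 0. Bexarotene or vehicle was given into the peritoneum on Day 14, and tumor with skin was taken on Day 16. The tumor came from 1 cell line, and skin without a tumor was not analysed here.

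Chemokine receptors sit on the surface of leukocytes and steer their movement toward chemokines that other cells secrete. Entry into skin also needs selectin binding, for which PSGL-1, the product of *Selplg*, is a main ligand on leukocytes, and exit from tissue into lymph or blood follows sphingosine 1-phosphate (S1P) through S1PR1. In human cutaneous T-cell lymphoma, CCR4 marks many malignant cells and is the target of the antibody mogamulizumab, and CCR4 and CCR10 are the classical receptors of skin-homing T cells.

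The libraries held 8518428 to 18340980 counts in the Bexarotene mice and 16196852 to 24020342 in the Vehicle mice. Scaling was by TMM (a trimmed mean of log ratios), which sets the scale by the bulk of the genes, and levels are given as TMM-scaled CPM, which are counts relative to the scaled library size. After scaling, Bexarotene 1 and Bexarotene 2 were shallow. There 1 count was worth 0.158 and 0.422 CPM, against 0.0199 to 0.0546 CPM in the other 6 mice. Their totals were the lowest before scaling (11669333 and 8518428 counts), and TMM factors of 0.544 and 0.278 lowered them further. In the other 6 mice the factors were 0.763 to 2.18. The shallowness thus came partly from the scaling, and the CPM and main fold changes rest on these factors. Why they differed was not tested. The 20 T-lineage markers, which EL4 cells and host T cells can both express, summed to 240 to 261 CPM in the Bexarotene mice and 201 to 269 CPM in the Vehicle mice. *Thy1* alone gave 96.3 to 114 CPM of this sum in the Bexarotene mice and 85.8 to 134 CPM in the Vehicle mice. Whether cells other than T cells contributed to it was not tested. The 7 keratinocyte markers, which define epidermis, summed to 41.8 to 140 CPM in the Bexarotene mice and 1.37 to 375 CPM in the Vehicle mice. The lowest value was that of Vehicle 4, in which *Krt1*, *Krt10*, *Krt15* and *Trp63* had 0 counts although the label names skin, so estimates are also given without this mouse. Fewer cells of a type and less RNA per cell cannot be told apart in these bulk samples.

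Promoters of the 3 most abundant receptor genes are shown because bexarotene acts on nuclear receptors that bind DNA. RefSeq windows of 250 bases before to 50 bases after the start of transcription (build GRCm38.p6) were matched by symbol for 5 of the 9 genes, namely *Ccr4*, *Ccr8*, *Ccr9*, *Cxcr3* and *Cxcr4*. The windows lie at chr9:114496495-114496794 (minus strand) for *Ccr4*, chr9:123766961-123767260 (plus strand) for *Ccr9* and chr1:128592250-128592549 (minus strand) for *Cxcr4*. They are written 5′ to 3′, with the first transcribed base as a lone capital. A longer run of capitals marks a TGANTCA match in *Ccr4* and overlapping TATAAA matches on both strands in *Cxcr4*.
Ccr4: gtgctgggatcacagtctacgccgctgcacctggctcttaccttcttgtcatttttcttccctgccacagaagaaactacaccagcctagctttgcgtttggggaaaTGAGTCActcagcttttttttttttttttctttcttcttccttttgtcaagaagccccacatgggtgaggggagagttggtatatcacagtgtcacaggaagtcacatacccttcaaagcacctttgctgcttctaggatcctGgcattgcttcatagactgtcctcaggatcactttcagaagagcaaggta
Ccr9: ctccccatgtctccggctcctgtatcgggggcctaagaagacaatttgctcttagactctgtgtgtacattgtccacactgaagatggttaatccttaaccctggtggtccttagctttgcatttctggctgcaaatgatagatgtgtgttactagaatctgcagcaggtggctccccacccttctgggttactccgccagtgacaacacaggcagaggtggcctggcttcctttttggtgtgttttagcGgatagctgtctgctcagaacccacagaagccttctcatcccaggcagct
Cxcr4: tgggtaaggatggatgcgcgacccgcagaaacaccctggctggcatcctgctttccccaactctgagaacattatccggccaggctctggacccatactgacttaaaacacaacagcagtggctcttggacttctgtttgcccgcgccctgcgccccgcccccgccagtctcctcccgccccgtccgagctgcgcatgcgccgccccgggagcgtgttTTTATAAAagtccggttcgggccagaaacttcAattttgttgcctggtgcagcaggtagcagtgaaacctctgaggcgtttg
Retinoid X receptors and their partners can bind half-sites, and 4 of these were searched on both strands: AGGTCA, which lies in 16.3% of the 32851 mouse promoter windows of the same length, GGGTCA, which lies in 13.7%, AGTTCA, which lies in 14%, and GGTTCA, which lies in 10.4%. Of the 5 receptor windows 0 held any of them, whereas 43.7% of all windows did. TATAAA, the core of the TATA box, and TGANTCA, the core of the site of AP-1 factors, were searched after the windows had been read. TATAAA lay 30 and 32 bases before the start of *Cxcr4*, and 13.6% of all windows held it. TGANTCA lay 143 bases before the start of *Ccr4*, and 7.81% of all windows held it. A match or its absence in these windows says nothing about binding.

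The first question was how strongly each receptor was expressed in the tumor-bearing skin. Most of the signal came from *Cxcr4*, *Ccr9* and *Ccr4*, which held 81.2% to 90.7% of the counts of the 9 genes in the Bexarotene mice and 72.2% to 91.2% in the Vehicle mice. Levels were compared between genes as CPM per kilobase of the deposited gene length. *Cxcr4* was highest, at a mean of 5.31 CPM per kilobase in the Bexarotene mice and 5.68 in the Vehicle mice, and it lay above *Ccr4*, the next gene, in 8 of 8 mice. *Ccr4* averaged 1.47 CPM per kilobase in the Bexarotene mice and 1.36 in the Vehicle mice. *Ccr9* averaged 1.43 CPM per kilobase in the Bexarotene mice and 1.01 in the Vehicle mice, and *Ccr4* lay above it in 7 of 8 mice. The SD over all mice was 0.434 for *Ccr4* and 0.537 for *Ccr9*, larger than the distance between their means. Both genes were measured in the same mice, so these SDs do not measure the spread of their difference. A separation of these neighbours was not tested. The deposited length of *Ccr9* was 11031 bases, the longest of the set, and its level per kilobase depends on that length. In the GENCODE vM39 annotation its exons cover 10583 bases. Other lengths differed more: 4456 deposited bases against 3093 annotated for *Ccr4*, 1175 against 1466 for *Ccr8* and 3046 against 4134 for *S1pr1*. The order of neighbouring genes therefore depends on the lengths used.

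The other 6 genes lay lower. *Selplg* averaged 0.399 CPM per kilobase in the Bexarotene mice and 0.756 in the Vehicle mice, *S1pr1* 0.409 in the Bexarotene mice and 0.334 in the Vehicle mice, and *Ccr7* 0.439 in the Bexarotene mice and 0.182 in the Vehicle mice. Their order differed between the groups: *Ccr7* ranked 4 of 9 with bexarotene and 6 of 9 with vehicle, and *Selplg* 6 of 9 with bexarotene and 4 of 9 with vehicle. Over all 8 mice *Selplg* lay above *S1pr1* in 4 mice and *S1pr1* above *Ccr7* in 6, so none of these neighbours kept one order in every mouse. *Ccr8*, *Cxcr3* and *Ccr10* averaged 0.163, 0.0820 and 0.0605 CPM per kilobase over all mice, and each had 0 counts in 3 of the 8 mice.

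**Figure D1:**
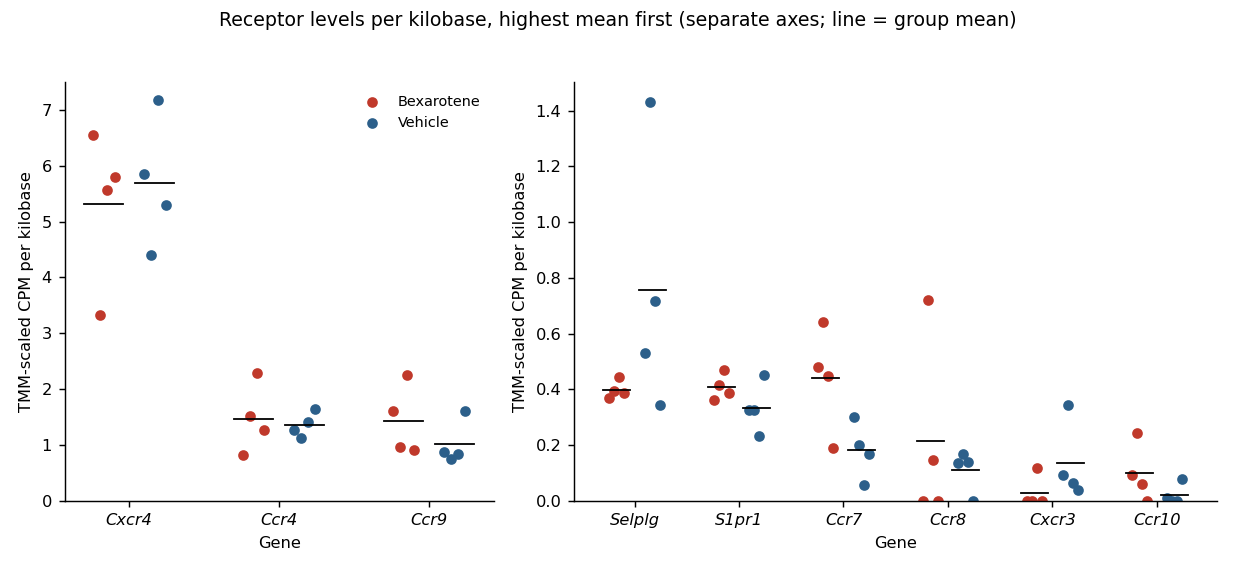
Level of each receptor gene in each mouse, in TMM-scaled CPM per kilobase of gene length, with Bexarotene mice in red, Vehicle mice in blue and the group mean as a line; the 6 lower genes have their own axis. *Cxcr4* stood above the other 8 genes at a mean of 5.50 over all mice, and *Ccr10* was lowest at 0.0605.

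The second question was whether bexarotene altered these transcripts within 2 days of treatment. With edgeR's quasi-likelihood test, 0 of the 9 genes passed an adjusted p of 0.05, and 0 of all 11616 genes tested did so (0%). At an unadjusted p of 0.05, 0 of the 9 passed, against 3.68% of all genes tested (1.3% with the lower level in the Bexarotene mice), and DESeq2 and limma-voom also gave 0 of 9 (smallest unadjusted p 0.0519 in DESeq2 and 0.0970 in limma-voom). In the edgeR fit without a filter 1 of the 9 passed at an unadjusted p of 0.05, *Selplg*, with 0.0226. Of all 25539 genes in that fit, 957 passed at this level. The groups overlapped for all 9 genes, and Bexarotene lay below Vehicle in every mouse for 1.42% of all genes tested and above it for 1.41%. Of the 9 genes, 5 passed edgeR's filter on low counts (*Ccr4*, *Ccr9*, *Cxcr4*, *S1pr1* and *Selplg*), and their fitted log2 fold changes, bexarotene over vehicle, were above 0 for 3 and below 0 for 2. Of all genes tested, 53.5% had an estimate below 0. The median over the 5 genes was 0.15, against −0.03 over all genes tested. *Ccr7*, *Ccr8*, *Ccr10* and *Cxcr3* failed the filter and were estimated in a fit of all 25539 genes with a count, in which 0% passed the adjusted threshold.

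**Figure D2:**
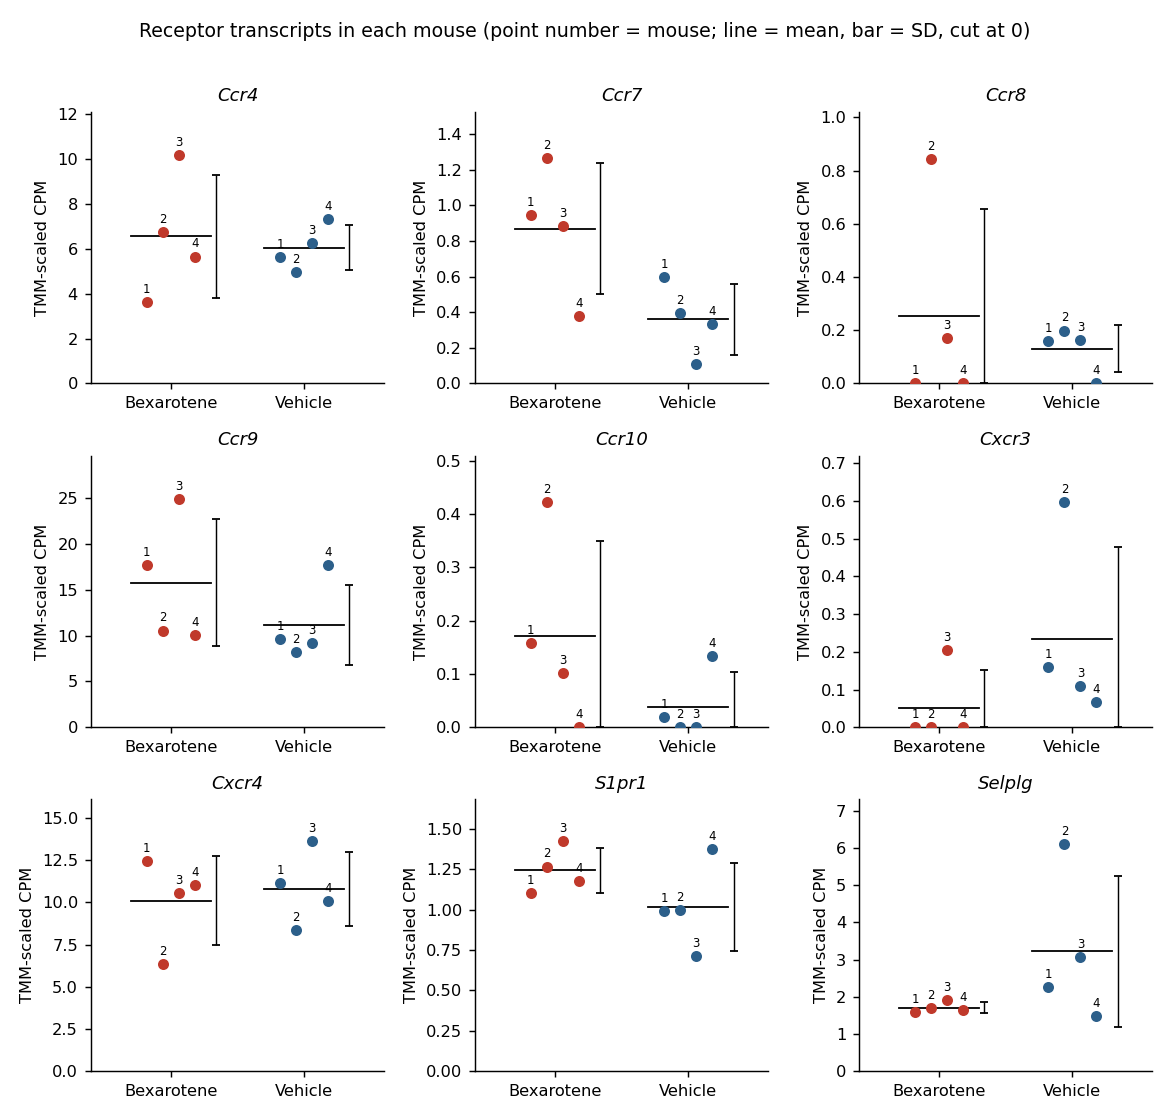
TMM-scaled CPM of the 9 receptor genes in each mouse, Bexarotene left of Vehicle, with numbered points for mice, a line for the mean and a bar for the SD (n = 4 each). The groups overlap in all 9 panels, and Vehicle 2 stands highest for *Selplg* and *Cxcr3*.

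*Ccr4* binds CCL17 and CCL22 and marks skin-homing, Th2 and regulatory T cells (ENSMUSG00000047898, chromosome 9, 114319384 to 114333984, minus strand, GRCm39). Its level was 3.63, 6.76, 10.2 and 5.66 CPM in Bexarotene 1 to 4, against 5.62, 4.97, 6.28 and 7.33 CPM in Vehicle 1 to 4. The Bexarotene mice thus lay on both sides of all Vehicle mice, with Bexarotene 1 the lowest and Bexarotene 3 the highest of the 8. The mean was 6.56 ± 2.75 CPM with bexarotene and 6.05 ± 1.01 CPM with vehicle (SD, n = 4 each). The log2 fold change was 0.15 (SE 0.28, 95% interval −0.46 to 0.76), with an adjusted p of 0.9999 in edgeR and p = 0.886 in a two-sided exact permutation test. That interval spans 0.729-fold to 1.69-fold. The estimate took its sign from 1 mouse: without Bexarotene 3 it was −0.20. Relative to T-lineage content, *Ccr4* gave 14.1, 25.8, 42.0 and 23.6 counts per 1000 T-lineage counts in Bexarotene 1 to 4 and 25.8, 22.1, 23.3 and 36.5 in Vehicle 1 to 4. On this scale too the Bexarotene mice held the lowest and the highest value, and the log2 difference was −0.11 (two-sided exact permutation test, p = 0.943). This ratio was chosen after the data had been seen.

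The ligands of CCR4 were scarce in the same tissue. *Ccl17* had 0 counts in all 8 mice, which allows up to 0.0169 CPM (3 counts over the 8 libraries, counting error only). *Ccl22* had 1, 0, 12 and 5 counts in Bexarotene 1 to 4 and 19, 3, 2 and 7 in Vehicle 1 to 4, with means of 0.200 ± 0.170 CPM with bexarotene and 0.218 ± 0.119 CPM with vehicle (SD, n = 4 each). *Ccr4* itself had a count in every mouse. In Bexarotene 2, 1 count was worth 0.422 CPM, above the mean of *Ccl22* in either group. A *Ccl22* count of 0 in that mouse is therefore not informative.

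*Ccr10*, the other skin-homing receptor, binds CCL27 and CCL28 (ENSMUSG00000044052, chromosome 11, 101063823 to 101066269, minus strand). It was at the limit of detection, with 1, 1, 3 and 0 counts in Bexarotene 1 to 4 and 1, 0, 0 and 4 counts in Vehicle 1 to 4. Both groups thus totalled 5 counts, from libraries of unequal depth. The edgeR estimate of 1.12 had an SE of 1.25 and a 95% interval of −1.46 to 3.70. Without Vehicle 4, which leaves 1 *Ccr10* count in the Vehicle mice, it was 2.64, with an unadjusted p of 0.0771 and an adjusted p of 0.849 in edgeR. At the pooled vehicle level, 0.0998 counts would be expected in Bexarotene 2 and 0.267 in Bexarotene 1, so a single count sets the level there. The ligand *Ccl27a*, made by keratinocytes, averaged 0.380 ± 0.221 CPM with bexarotene and 0.228 ± 0.288 CPM with vehicle, and *Ccl28* had a count in 1 Bexarotene and 2 Vehicle mice. A difference in *Ccr10* was not detectable at this depth.

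*Ccr8* is found on regulatory and Th2 cells and binds CCL1 and, in mice, CCL8 (ENSMUSG00000042262, chromosome 9, 119921180 to 119923972, plus strand). It had 0, 2, 5 and 0 counts in Bexarotene 1 to 4 and 8, 4, 3 and 0 counts in Vehicle 1 to 4. Bexarotene 2 was highest in CPM, at 0.845, on the strength of 2 counts. The edgeR estimate was 0.05 (SE 1.31, 95% interval −2.64 to 2.74), and its sign turned in 7 of 20 alternatives. *Ccl8* was among the most abundant ligands, at 3.95 ± 2.41 CPM with bexarotene and 4.21 ± 2.68 CPM with vehicle, whereas *Ccl1* had 0 counts in the Bexarotene mice and 2 counts in all in the Vehicle mice.

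*Cxcr4* encodes the receptor of CXCL12, which retains cells in bone marrow and stroma (ENSMUSG00000045382, chromosome 1, 128515936 to 128520030, minus strand). It stood at 12.5, 6.34, 10.6 and 11.0 CPM in Bexarotene 1 to 4, against 11.1, 8.35, 13.7 and 10.1 CPM in Vehicle 1 to 4. Thus 7 of the 8 mice lay within 8.35 to 13.7 CPM, and the lowest, Bexarotene 2, rested on 15 counts. The mean was 10.1 ± 2.64 CPM with bexarotene and 10.8 ± 2.22 CPM with vehicle (SD, n = 4 each). Of the 9 genes *Cxcr4* had the narrowest interval: its log2 fold change was −0.06 (SE 0.22, 95% interval −0.53 to 0.42; adjusted p = 0.9999 in edgeR), or 0.693-fold to 1.33-fold. The sign of so small an estimate was not stable, and it was 0.07 without Vehicle 3 and 0.06 without Bexarotene 2. *Cxcl12*, which fibroblasts and endothelium express, averaged 5.20 ± 1.55 CPM with bexarotene and 7.31 ± 4.72 CPM with vehicle, with a log2 fold change of −0.41 (SE 0.40, adjusted p = 0.976 in edgeR).

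*Ccr9* encodes the receptor of CCL25, which thymocytes and gut-homing T cells carry (ENSMUSG00000029530, chromosome 9, 123507504 to 123613395, plus strand). It stood at 17.7, 10.6, 24.9 and 10.1 CPM in Bexarotene 1 to 4, against 9.67, 8.21, 9.17 and 17.7 CPM in Vehicle 1 to 4. All 4 Bexarotene mice lay above Vehicle 1 to 3, and Vehicle 4 lay among the Bexarotene mice. The mean was 15.8 ± 6.98 CPM with bexarotene and 11.2 ± 4.37 CPM with vehicle (SD, n = 4 each). The log2 fold change was 0.53 (SE 0.33, 95% interval −0.19 to 1.25), with an unadjusted p of 0.134 and an adjusted p of 0.976 in edgeR and p = 0.200 in a two-sided exact permutation test. Vehicle 4, the mouse with almost no keratinocyte transcripts, weighed on this value. Without it the estimate was 0.85 (unadjusted p = 0.0189, adjusted p = 0.989 in edgeR), and without Bexarotene 3 it was 0.22. Per 1000 T-lineage counts the values were 68.5, 40.4, 102.5 and 42.0 in Bexarotene 1 to 4 and 44.4, 36.5, 34.1 and 87.9 in Vehicle 1 to 4, again with Vehicle 4 the only high Vehicle mouse.

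Of the exon bases of *Ccr9*, 23.8% are shared with other genes in GENCODE vM39 (22.4% with genes on the opposite strand), and its counts are uncertain there because no source used here states how strand was handled. The overlapping genes *Gm17021* and *Gm17200* had 0 counts and *Slc6a20a* had 12 over the 8 mice, against 2431 for *Ccr9*. These counts do not show how reads in the shared bases were assigned. *Lztfl1*, described below, lies on the other strand within the span of *Ccr9* and had 1289 counts. It is not among the genes that share exon bases with *Ccr9* in this annotation. *Ccl25*, the ligand, averaged 1.10 ± 0.784 CPM with bexarotene and 1.28 ± 0.160 CPM with vehicle. Its Bexarotene mice spread more widely, and Bexarotene 2 held 1 count.

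*Ccr7* guides T cells and dendritic cells to lymph nodes along CCL19 and CCL21 (ENSMUSG00000037944, chromosome 11, 99035022 to 99045903, minus strand). It had 6, 3, 26 and 8 counts in Bexarotene 1 to 4 and 30, 8, 2 and 10 counts in Vehicle 1 to 4. In CPM these were 0.947, 1.27, 0.884 and 0.377 in Bexarotene 1 to 4 and 0.596, 0.398, 0.109 and 0.335 in Vehicle 1 to 4. Bexarotene 1, 2 and 3 lay above every Vehicle mouse, and Bexarotene 4 lay below Vehicle 1 and Vehicle 2. The mean was 0.869 ± 0.368 CPM with bexarotene and 0.359 ± 0.200 CPM with vehicle (SD, n = 4 each). The log2 fold change of 1.03 (SE 0.60, 95% interval −0.21 to 2.26) had an adjusted p of 0.832 in edgeR and p = 0.0857 in a two-sided exact permutation test, of which the smallest possible value is 0.0286. The highest level, that of Bexarotene 2, rested on 3 counts, where 0.998 would be expected at the pooled vehicle level. *Ccl21a* averaged 0.421 ± 0.353 CPM with bexarotene and 0.756 ± 0.725 CPM with vehicle, and *Ccl19* had 1 count in the Bexarotene mice and 7 in the Vehicle mice.

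*S1pr1* lets lymphocytes leave tissue along the S1P gradient (ENSMUSG00000045092, chromosome 3, 115504082 to 115508721, minus strand). It stood at 1.10, 1.27, 1.43 and 1.18 CPM in Bexarotene 1 to 4, against 0.993, 0.995, 0.710 and 1.37 CPM in Vehicle 1 to 4. The Bexarotene mice lay close together and above Vehicle 1 to 3, and Vehicle 4 fell between Bexarotene 2 and Bexarotene 3. The mean was 1.24 ± 0.139 CPM with bexarotene and 1.02 ± 0.272 CPM with vehicle (SD, n = 4 each), with a log2 fold change of 0.29 (SE 0.31, 95% interval −0.39 to 0.98; adjusted p = 0.980 in edgeR). The interval spans 0.764-fold to 1.97-fold, and Bexarotene 2 contributed 3 counts. Without Vehicle 4 the estimate was 0.48.

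*S1pr5* was the most abundant S1P receptor of the tissue. It averaged 21.9 ± 6.32 CPM with bexarotene and 16.5 ± 2.62 CPM with vehicle (SD, n = 4 each), and its log2 fold change was 0.38 (SE 0.22; adjusted p = 0.976 in edgeR). Per kilobase this was 6.92 CPM with bexarotene and 5.21 with vehicle, whereas *S1pr1* had 0.409 with bexarotene and 0.334 with vehicle. Of the 6 genes of S1P supply, 5 were tested, with 2 estimates above 0, 3 below and 0 called at an adjusted p of 0.05 or at an unadjusted p of 0.05. *Sgpp1* and *Sgpl1*, whose products degrade S1P, had log2 fold changes of −0.27 (SE 0.19) and −0.22 (SE 0.23), and *Sphk2*, a kinase that makes it, 0.27 (SE 0.26). *Plpp3*, a phosphatase that clears extracellular S1P, had −0.26 (SE 0.42).

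*Selplg* encodes PSGL-1, the selectin ligand of most leukocytes (ENSMUSG00000048163, chromosome 5, 113956597 to 113970705, minus strand). It stood at 1.58, 1.69, 1.90 and 1.65 CPM in Bexarotene 1 to 4, against 2.26, 6.12, 3.06 and 1.47 CPM in Vehicle 1 to 4. Vehicle 1, 2 and 3 lay above all Bexarotene mice, and Vehicle 4 below all of them. The mean was 1.71 ± 0.140 CPM with bexarotene and 3.23 ± 2.03 CPM with vehicle (SD, n = 4 each). The log2 fold change was −0.88 (SE 0.41, 95% interval −1.79 to 0.02), with an unadjusted p of 0.0555 and an adjusted p of 0.976 in edgeR and p = 0.143 in a two-sided exact permutation test. In the edgeR fit of all genes with a count, the unadjusted p was 0.0226 and the adjusted p 0.832. The size of the estimate rested on 1 mouse: without Vehicle 2 it was −0.38 (unadjusted p = 0.247 in edgeR). Without Vehicle 4 it was −1.11 (unadjusted p = 0.0107, adjusted p = 0.989 in edgeR). With T-lineage content as a covariate it was −0.14 (unadjusted p = 0.784 in edgeR). Per T-lineage count, a ratio chosen after the data had been seen, the log2 difference was −0.87 (two-sided exact permutation test, p = 0.0571). The size of the *Selplg* estimate thus depended on how T-lineage content was measured. The covariate was the mean log2 CPM of the T-lineage markers, so scarce markers weighed as much as *Thy1*. The ratio used their summed counts, in which *Thy1* was the most abundant. The scarce *Cd8a* and *Cd8b1* had their highest counts in Vehicle 2 (33 and 25), the highest mouse for *Selplg*. The value of −0.14 therefore cannot be read as an adjustment for summed T-lineage content. The reason for the difference was not tested. Of the exon bases of *Selplg*, 12.6% lie opposite *Gm71766*.

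*Cxcr3* binds CXCL9 and CXCL10 and is carried by activated CD8 and Th1 cells (ENSMUSG00000050232, chromosome X, 100775141 to 100777875, minus strand). It had 0, 0, 6 and 0 counts in Bexarotene 1 to 4 and 8, 12, 2 and 2 counts in Vehicle 1 to 4. Every Vehicle mouse thus had a count, and of the Bexarotene mice Bexarotene 3 alone did. At the pooled vehicle level 0.479 counts would be expected in Bexarotene 2 and 1.28 in Bexarotene 1, so a count of 0 in these mice is not informative. In Bexarotene 4, which also had 0, 4.29 counts would be expected. Of the 24 Vehicle counts behind this pooled level, 12 came from Vehicle 2, so the expected counts lean on that mouse. The edgeR log2 fold change was −1.32 (SE 1.02, 95% interval −3.43 to 0.78; adjusted p = 0.832), and p = 0.114 in a two-sided exact permutation test. Without Vehicle 2 the estimate was −0.44. *Cxcl9* averaged 2.25 ± 0.486 CPM with bexarotene and 2.91 ± 2.13 CPM with vehicle, and *Cxcl10* 1.06 ± 1.55 CPM with bexarotene and 0.921 ± 0.563 CPM with vehicle.

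Vehicle 2, the highest mouse for both *Selplg* and *Cxcr3*, also stood high for transcripts of several kinds of host cells. It was the highest mouse for the summed keratinocyte markers, at 375 CPM. The same held for the endothelial markers, at 22.8 CPM, close to Bexarotene 3 at 22.5 CPM. It was not the highest for the summed neutrophil, dendritic-cell, fibroblast or B-cell markers. *Cd8a* and *Cd8b1*, the chains of CD8 (named after their values were seen), summed to 2, 0, 0 and 1 counts in Bexarotene 1 to 4 and to 4, 58, 10 and 7 counts in Vehicle 1 to 4. The 10 macrophage markers summed to 36.3, 30.0, 23.3 and 38.1 CPM in Bexarotene 1 to 4 and to 33.1, 80.2, 45.5 and 22.4 CPM in Vehicle 1 to 4. Vehicle 2 and Vehicle 3 lay above all Bexarotene mice in this sum, and Vehicle 4 lay below all of them, as for *Selplg*. Of the 10 markers 9 were tested, all 9 with estimates below 0 (median −0.43), and 0 passed an adjusted p of 0.05 in edgeR. At the unadjusted threshold 1 passed, *Mrc1*, the mannose receptor, with −0.72 and an unadjusted p of 0.0266. *Mertk* had 0 counts in Bexarotene 2, and no other macrophage marker was at 0 in any mouse. The part of these cells in the *Selplg* and *Cxcr3* values was not tested.

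**Figure D3:**
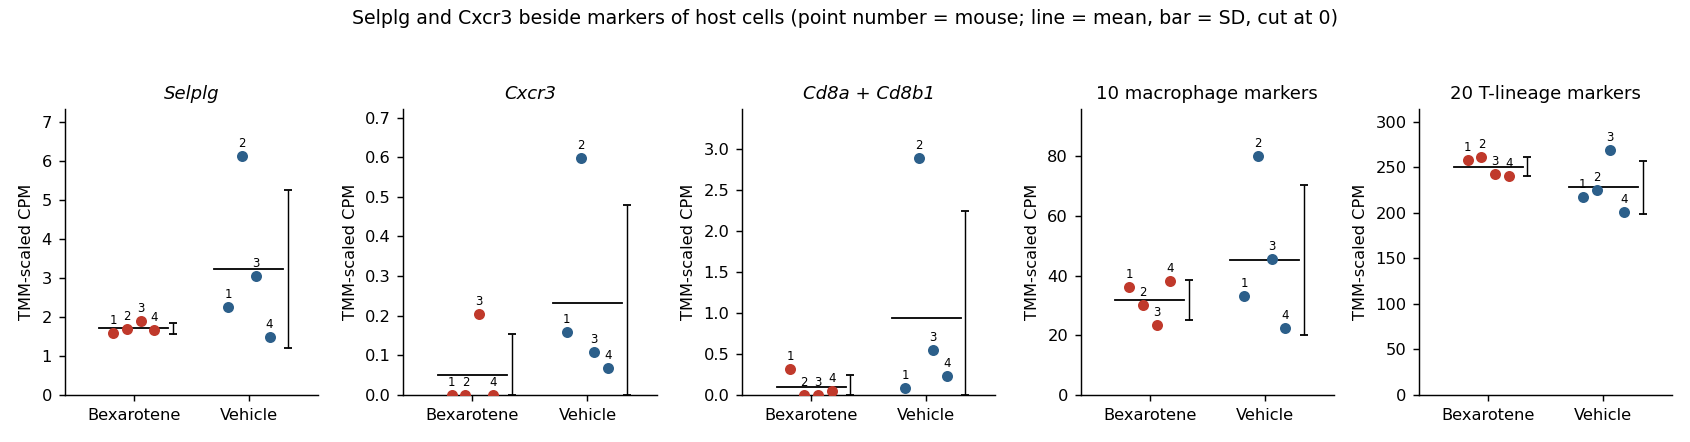
*Selplg*, *Cxcr3*, the sum of *Cd8a* and *Cd8b1*, and the summed macrophage and T-lineage markers in TMM-scaled CPM, Bexarotene left of Vehicle, with numbered points for mice, a line for the mean and a bar for the SD (n = 4 each). Vehicle 2 is highest in the first 4 panels, at 6.12 CPM for *Selplg* and 80.2 CPM for the macrophage sum, and lies within the range of the other mice for the T-lineage sum.

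**Figure D4:**
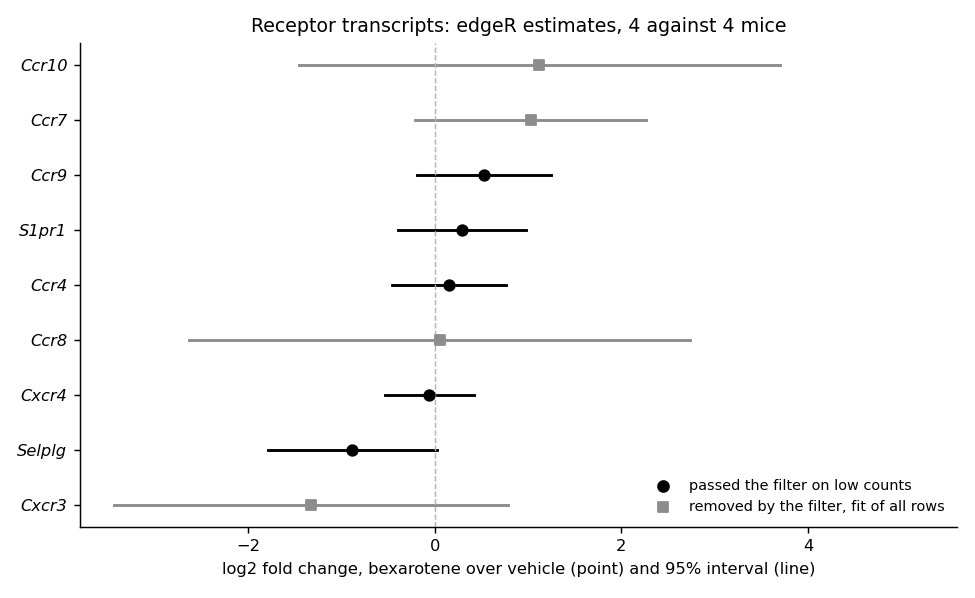
Fitted log2 fold change of each receptor gene, bexarotene over vehicle, with its 95% interval; black circles passed the filter on low counts and grey squares come from the fit of all genes with a count. All 9 intervals include 0, that of *Selplg* with an upper bound of 0.02.

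The selectin side of the pathway was measured as well. *Selp*, the P-selectin of activated endothelium and platelets, averaged 0.833 ± 0.473 CPM with bexarotene and 0.579 ± 0.158 CPM with vehicle, with a log2 fold change of 0.75 (SE 0.41; adjusted p = 0.976 in edgeR). *Sele*, the E-selectin of inflamed skin vessels, was scarcer, at 0.178 ± 0.132 CPM with bexarotene and 0.192 ± 0.104 CPM with vehicle. PSGL-1 binds selectins only after glycosylation and sulfation. Of 8 genes for these steps 4 were tested, all 4 with estimates above 0 (median 0.16) and 0 called, adjusted or unadjusted. Among them *Tpst2*, a tyrosine sulfotransferase, had 0.63 (SE 0.32), and *B4galt1*, *Tpst1* and *St3gal4* had 0.15, 0.18 and 0.04. Over all 15 ligands and counter-receptors, 7 were tested, with 2 estimates above 0 and 5 below, a median of −0.31 and 0 called, adjusted or unadjusted.

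Other receptors of the same families were given for comparison. Of 20 further chemokine and S1P receptors 10 were tested, with 3 estimates above 0 and 7 below (median −0.15) and 0 called at an adjusted p of 0.05. *Ccr2*, the CCL2 receptor of monocytes, averaged 0.927 ± 0.370 CPM with bexarotene and 1.82 ± 0.343 CPM with vehicle (SD, n = 4 each). It was the 1 gene of this list with an unadjusted p below 0.05, with a log2 fold change of −0.88 (SE 0.34), an unadjusted p of 0.0261 and an adjusted p of 0.976 in edgeR. It was named after its value was seen. *S1pr2* and *S1pr3*, other S1P receptors, had log2 fold changes of −0.15 (SE 0.19) and −0.01 (SE 0.36). *Ackr1*, a scavenging receptor of venules, had 0 counts in all 8 mice.

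Of 18 genes for signalling downstream of these receptors and its control 17 were tested, with 10 estimates above 0 and 7 below (median 0.05) and 0 called at an adjusted p of 0.05. The 4 most abundant were *Msn* and *Ezr*, which link membrane proteins to actin, and *Gnai2* and *Gnb1*, subunits of the G protein that chemokine receptors use. *Msn* averaged 56.9 ± 8.78 CPM with bexarotene and 62.7 ± 1.83 CPM with vehicle (SD, n = 4 each). *Gnai2* had a log2 fold change of −0.01 (SE 0.15), and *Msn*, *Ezr* and *Gnb1* had −0.14 (SE 0.17), 0.08 (SE 0.18) and −0.05 (SE 0.17). *Grk2*, a kinase that desensitizes these receptors, was the 1 gene of the list with an unadjusted p below 0.05 (0.0370), at 31.1 ± 10.4 CPM with bexarotene and 21.0 ± 2.15 CPM with vehicle, a log2 fold change of 0.54 (SE 0.23, adjusted p = 0.976 in edgeR). It too was named after its value was seen.

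The cell type markers gave 0 calls at an adjusted p of 0.05 in edgeR. Of 20 T-lineage markers 15 were tested, 10 with estimates above 0 and 5 below (median 0.16). Of those tested, 1 had an unadjusted p below 0.05, *Cd247*, the zeta chain of the T-cell receptor complex (−0.90, unadjusted p = 0.0287 in edgeR). The rest failed the filter. In the fit of all genes with a count, *Cd6*, *Cd8a* and *Cd8b1* had −4.66, −3.55 and −3.95. Their unadjusted p was 0.00927, 0.00932 and 0.00819, with an adjusted p of 0.832 in edgeR. All 3 rested on few counts, and Vehicle 2 held 33 of *Cd8a* and 25 of *Cd8b1*. In that fit *Lat* had −0.36 and *Trbc1* 0.44. *Cd247* and these markers were named after their values were seen. *Thy1*, *Bcl11b*, *Cd3e* and *Trac*, the most abundant of the 20, had log2 fold changes of 0.05, 0.58, 0.19 and −0.05, and each had counts in all 8 mice. The 7 keratinocyte markers all had estimates below 0 (median −0.84), with 0 at an unadjusted p below 0.05, and *Krt5* averaged 13.5 ± 10.8 CPM with bexarotene and 30.7 ± 26.7 CPM with vehicle (SD, n = 4 each). The 7 endothelial markers had 4 estimates above 0 and 3 below (median 0.04), with *Pecam1* at 9.82 ± 0.817 CPM with bexarotene and 9.47 ± 1.56 CPM with vehicle. The 7 fibroblast markers had 3 above and 4 below (median −0.21), led by *Col1a1* at 546 ± 449 CPM with bexarotene and 248 ± 131 CPM with vehicle. Of the 6 B-cell markers 1 was tested (*Cd22*, 0.75), and *Ms4a1*, which encodes CD20, had 0 counts in all 8 mice. Of 8 regulatory and helper T-cell markers 3 were tested: *Ikzf2* had 0.33, *Gata3* −0.28 and *Il2ra* −0.59. Of 8 dendritic-cell markers 3 were tested (*Fscn1* 0.41, *Itgax* 0.14 and *Flt3* −0.09). Of 7 neutrophil markers 3 were tested, all 3 with estimates below 0 (*Csf3r* −0.29, *S100a9* −0.95 and *S100a8* −1.34), and *S100a8*, a calcium-binding protein of neutrophils, had an unadjusted p of 0.0371 in edgeR.

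The estimates were finally compared over the mice included. Leaving out 1 mouse at a time gave −0.20 to 0.34 for *Ccr4*, 0.22 to 0.85 for *Ccr9*, −0.16 to 0.07 for *Cxcr4*, 0.16 to 0.48 for *S1pr1* and −1.11 to −0.38 for *Selplg*. *Ccr9* and *S1pr1* kept estimates above 0 and *Selplg* below 0 in all 8 of these fits, and *Ccr4* and *Cxcr4* did not keep a sign. Without Vehicle 4, *Ccr4* had 0.27, *Cxcr4* −0.08, *Ccr7* 0.94, *Ccr8* −0.41 and *Cxcr3* −1.59. Without both shallow libraries, Bexarotene 1 and Bexarotene 2, the estimates were 0.40 for *Ccr4*, 0.66 for *Ccr9*, 0.01 for *Cxcr4*, 0.36 for *S1pr1* and −0.82 for *Selplg*, with 0 called.

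**Figure D5:**
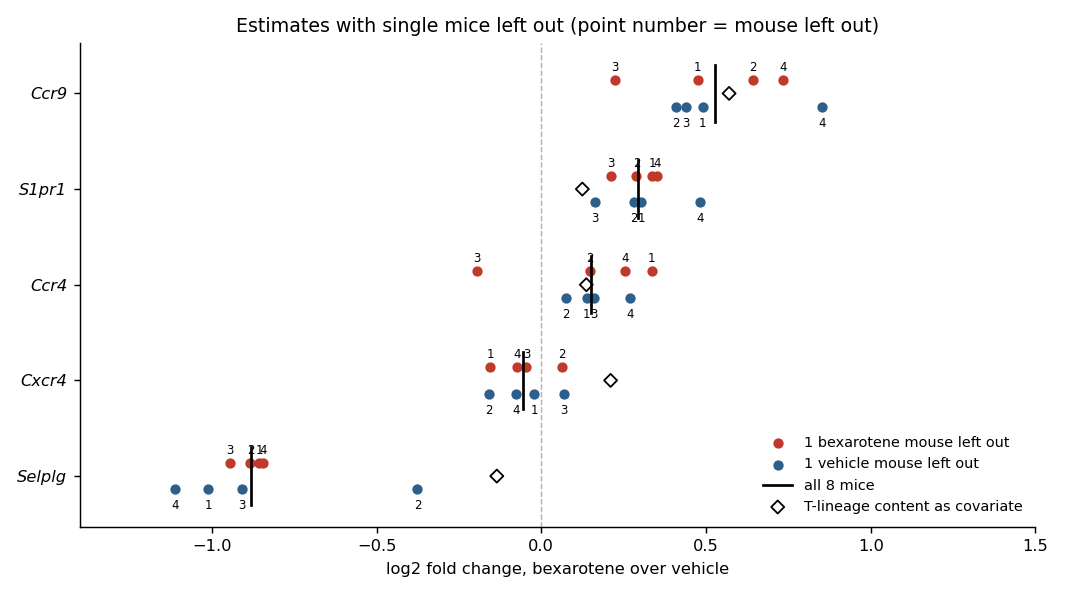
Fitted log2 fold change, bexarotene over vehicle, of the 5 receptor genes that passed the filter, with each Bexarotene mouse (red) or Vehicle mouse (blue) left out in turn; black lines are the fits of all 8 mice and diamonds the fits with T-lineage content as a covariate. *Selplg* moved to −0.38 without Vehicle 2, *Ccr9* to 0.85 without Vehicle 4 and *Ccr4* to −0.20 without Bexarotene 3.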

How the data were processed

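RNA was depleted of ribosomal RNA and sequenced from a directional kit. The submitters' processing notes name Trimmomatic 0.30 and FastQC 0.11.9 for the reads, HISAT2 2.0.1 for alignment to GRCm39 (the study's methods name another version) and HTSeq 0.6.1, with which the authors made the deposited raw counts. These are unscaled and unfiltered. The strand setting is not given in the sources used here.

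Groups came from the treatment labels. Counts were analysed in R 4.3.3 with edgeR 4.0.16 (filterByExpr, minimum count 10 and total 15; TMM; quasi-likelihood test, no covariate, Benjamini-Hochberg adjustment over all genes tested, threshold 0.05). DESeq2 1.42.0, limma-voom (limma 3.58.1), other scalings and filters, T-lineage content as a covariate, a replicate block, left-out mice and exact permutation tests over the 70 assignments of 4 against 4 mice (log2 CPM, prior count 2) were alternatives. The scripts were tested on simulated data. The libraries are numbered samples of each group, so p-values measure the spread between these samples. No 2 were identical. Floors cover counting error only, whereas the 95% intervals of fold changes come from the edgeR fit and include the spread between mice.

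Named were the 9 receptors, any ligand or counter-receptor, and in each other list the 4 genes of highest mean CPM and any gene past the adjusted threshold; exceptions are stated with them or are *Ackr1*, *Ms4a1*, *Mertk*, *Krt1*, *Krt15* and *Trp63*, named after their counts of 0 were seen, and genes that share exon bases with a receptor. Of the genes this rule selects, some are not reported here. The receptors and lists were chosen with earlier results of these data known. Promoters came from RefSeq (GRCm38.p6), exon overlaps from GENCODE vM39.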

Additional observations from a re-analysis of the deposited data

Results flagged for a closer look

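In groups of 4 mice, a value was noted when its gap to the nearest other mouse, divided by the range of the group, exceeded Dixon's 95% critical value. The receptors and their ligands gave 45 groups with a range above 0, and 7 values met this. The critical value is set at 1 in 20 groups for normally distributed values, so it gives no chance rate for low counts. A group with counts in 1 mouse only has a gap over range of 1 whatever the count. Of the genes with a noted value, only *Ccr9* and *Cxcl10* passed the filter on low counts. *Ccr9* stood at 17.68 CPM in Vehicle 4 and at 8.21 to 9.67 CPM in the other Vehicle mice (gap over range 0.845). *Cxcl10* stood at 3.379 CPM in Bexarotene 2, from 8 counts, and at 0.189 to 0.340 CPM in the other Bexarotene mice (gap over range 0.953). The other 5 values rested on few counts. *Cxcr3* stood at 0.2039 CPM in Bexarotene 3 (6 counts), *Ccl19* at 0.03399 CPM in Bexarotene 3 (1 count) and *Ccl28* at 0.09433 CPM in Bexarotene 4 (2 counts), with 0 in the other Bexarotene mice. *Ccr10* stood at 0.1339 CPM in Vehicle 4 (4 counts), with 0 to 0.0199 CPM in the other Vehicle mice. *Ccl27a* stood at 0.6552 CPM in Vehicle 3 (12 counts), with 0.0497 to 0.139 CPM in the other Vehicle mice. The cause of these values was not tested.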

How the results depend on the processing

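The number of receptors and of pathway genes past an adjusted p of 0.05 was 0 in every alternative run. Of 189 values for single receptors under the alternatives, 172 kept their direction and 17 turned it, and 0 passed the threshold. The median over all genes was −0.66 when libraries were scaled by total counts alone, and then *Ccr4* (−0.38), *Ccr8* (−0.46), *Ccr9* (−0.088) and *S1pr1* (−0.38) turned below 0, although all lay above that median. *Ccr8* was −0.30 in limma-voom, −0.44 with T-lineage content as a covariate, −0.69 without Bexarotene 2, −0.31 without Bexarotene 3, −0.41 without Vehicle 4 and −0.44 without Bexarotene 1 and 2. *Cxcr3* was 0.11 and *Cxcr4* 0.21 with T-lineage content as a covariate. *Cxcr4* was 0.06 without Bexarotene 2, 0.069 without Vehicle 3 and 0.0103 without Bexarotene 1 and 2. *Ccr4* was −0.20 without Bexarotene 3 and −0.11 per T-lineage count, a ratio chosen after seeing the data. The causes were not tested. Leaving out single mice gave −0.20 to 0.34 for *Ccr4*, −0.16 to 0.069 for *Cxcr4*, 0.22 to 0.85 for *Ccr9*, 0.16 to 0.48 for *S1pr1*, −1.11 to −0.38 for *Selplg*, 0.80 to 1.46 for *Ccr7*, −0.69 to 0.70 for *Ccr8*, 0.70 to 2.64 for *Ccr10* and −5.27 to −0.44 for *Cxcr3*. The value of −5.27 comes from the fit without Bexarotene 3, which leaves 0 *Cxcr3* counts with bexarotene, and is no bound. Requiring 10 counts in every mouse left 3 of the 9 receptors. The replicate numbers are shared by the groups, and same-numbered mice showed no sign of pairing (correlations of their deviations from the group means −0.08, −0.09, −0.07 and 0.00). Weak correlations of this kind cannot exclude pairing. With a replicate block 0 genes were called, and the estimates were 0.03 for *Ccr4*, 0.48 for *Ccr9* and −0.61 for *Selplg*. Depth after scaling limits *Ccr7*, *Ccr8*, *Ccr10* and *Cxcr3*, for which Bexarotene 2 would hold fewer than 1 count at the pooled vehicle level.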

Other observations

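The neighbours of *Ccr9* on chromosome 9 were read after the *Ccr9* values had been seen. *Lztfl1*, a gene of ciliary transport that lies on the other strand within the span of *Ccr9* (123523481 to 123546762), stood at 4.57, 2.96, 16.7 and 4.29 CPM in Bexarotene 1 to 4 and 3.16, 2.59, 3.77 and 13.1 CPM in Vehicle 1 to 4. *Cxcr6*, the CXCL16 receptor of resident T cells (123635540 to 123640825), stood at 1.58, 1.27, 2.41 and 0.283 CPM in Bexarotene 1 to 4 and 0.854, 0.448, 0.655 and 1.57 CPM in Vehicle 1 to 4. Both, like *Ccr9*, were highest in Bexarotene 3, and Vehicle 4 was the highest Vehicle mouse for all 3 genes. *Fyco1*, which overlaps *Cxcr6* on the other strand, stood at 0.789, 1.69, 3.64 and 2.88 CPM in Bexarotene 1 to 4 and 2.46, 3.93, 2.07 and 2.31 CPM in Vehicle 1 to 4, with Vehicle 2 highest. The log2 fold changes, bexarotene over vehicle, were 0.46 (SE 0.60) for *Lztfl1*, 0.64 (SE 0.58) for *Cxcr6* and −0.11 (SE 0.38) for *Fyco1*, with adjusted p of 0.985, 0.976 and 0.9999 in edgeR.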
